A study of Mus musculus with 12 samples.

Results

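The genes described here are the ER chaperones and unfolded protein response genes of mouse liver, a list of 43 gene symbols that covers the chaperones, co-chaperones and disulfide isomerases of the endoplasmic reticulum (ER), the translocon and its partners, ER-associated degradation and the unfolded protein response (UPR). Members were found by their symbols in the table of 24537 genes, and all 43 were present. Liver RNA-Seq was available for 12 male C57Bl/6J mice in 4 groups of 3, each housed singly and 6 weeks old at the start. Control (Con) mice were fed ad libitum and calorie-restricted (CR) mice received 30% less than the ad libitum mice ate, and each diet was sampled at day 25 and at day 30. The study set out to follow gene expression across the days on which hepatic protein synthesis changed under CR. According to its methods, CR mice were given a fortified version of the control chow once daily at noon and were held to a set fraction of the body weight of the ad libitum mice, so that diet composition, meal timing and body weight cannot be told apart from the amount of food. Its mice also received heavy water in the last days before sacrifice.

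Proteins that are to be secreted or placed in membranes enter the ER through the Sec61 channel, lose their signal peptide and are folded by chaperones and by enzymes that form disulfide bonds. When unfolded proteins build up, BiP leaves the sensors IRE1, PERK and ATF6, and the UPR then slows translation and raises transcription of chaperone and degradation genes, in part through the transcription factor XBP1. Hepatocytes secrete most plasma proteins and carry an extensive rough ER.

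Levels are given as deposited FPKM, which divide exon reads by exon length and by the depth of the library. The recovered depth lay between 15748430 (CR8) and 23347495 (CR12) reads. A fold change is the difference of group means of log2(FPKM + 1) ± SE, with 3 mice in each group. The pseudocount of 1 understates the change of genes with few reads. An adjusted p is the Benjamini-Hochberg value over the 10593 genes that limma tested, those with at least 1 FPKM in at least 3 libraries, and a gene was called at an adjusted p under 0.1. An exact permutation test of 3 mice against 3 cannot go below p = 0.1, so calls at a single day rest on the spread that limma takes from all 4 groups and shares over genes. Of the 43 members, 42 were tested. Sec61g, the small gamma subunit of the translocon, lay between 0 and 0.255 FPKM in the 12 mice and was not tested.

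The members covered a wide range of levels. On average over the 12 mice, 6 members lay above 100 FPKM, which were P4hb (462), Herpud1 (264), Calr (263), Hsp90b1 (234), Hspa5 (176) and Pdia3 (101). At the other end, 10 members lay under 10 FPKM. Among mice of the same group, the members were about as variable as other genes, with a median within-group SD of 0.1521 on the log2 scale against 0.1515 over all genes tested. Derl3, Dnajb9, Sdf2l1 and Creld2 had the widest spread, above that of 98.6%, 96.2%, 96.1% and 91.2% of genes tested.

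A single Con mouse at day 30, named Con11 in the deposited table, was often the highest of its group. It was so for 26 of the 42 tested members (61.9%), for 24 of the 30 tested cytosolic and mitochondrial chaperones (80.0%) and for 32.3% of all genes tested. In the 6 other pathway lists below the share ran from 16.7% to 66.7%. At day 25, the Con mouse Con7 was the highest of its group for 22 of the members (52.4%) and for 30.9% of all genes. The summed level of the 43 members was 2938 FPKM in Con11, against 2520.5 and 2412 FPKM in the other Con mice at day 30 and 2292 to 2725 FPKM in the remaining groups. For members whose day 30 fold change is given, the value without Con11 is beside it.

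At day 25, 1 of the 42 tested members was higher in CR mice (5.6% of all genes tested were) and 3 were lower (9.34% of all genes tested). At day 30, 3 were higher (8.33% of all genes) and 9 were lower (16.4% of all genes). Over both days, 5 were higher (14.2% of all genes) and 12 were lower (25.4% of all genes). Expressed as shares of the members, these were 2.38% and 7.14% at day 25, 7.14% and 21.4% at day 30, and 11.9% and 28.6% over both days, near the shares among all genes, and the counts are not a result about the list. The median log2 fold change of the members was -0.02 at day 25, -0.07 at day 30 and -0.08 over both days, against -0.04, -0.07 and -0.05 over all genes tested. Without Con11, the member median was 0.01 at day 30 and -0.01 over both days, against -0.07 and -0.06 over all genes. On leaving out a mouse of day 25, the member median at day 25 lay between -0.06 and 0.03. With all mice and on the log2(FPKM + 1) scale, no called member changed by 2-fold, that is by a log2 value of 1. Calls of that size made up 1.48%, 2.21% and 1.66% of all genes at day 25, at day 30 and over both days. For Sdf2l1 at day 30, the ratio of mean FPKM in CR to Con mice was 0.465. Alternatives took its log2 value at day 30 to -1.20, and that of Herpud1 at day 25 to 1.05.

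The counts depended on some choices. With the day 25 mice blocked by replicate number, 2 members were called at day 25, Herpud1 higher and Pdia4 lower (6.37% and 10.1% of all genes), while Calr (limma adjusted p = 0.119) and Dnajb11 (0.105) no longer passed. Without Con11, 3 members were higher and 6 were lower at day 30 (5.71% and 11.9% of all genes), with Sdf2l1, Creld2 and Xbp1 lost, and the same 3 were lost without the CR mouse CR10 (4.88% and 9.25% of all genes). Scaling the libraries by median ratios moved the split of higher to lower calls to 3 and 1 at day 25, 6 and 8 at day 30, and 9 and 11 over both days, and that of all genes to 8.77% and 7.54%, 12.5% and 11.7%, and 20.6% and 18.4%. Without the filter on low values, the day 25 split was 3 and 1 as well, against 2.65% and 4.9% of the 18362 genes then tested. Groups did not overlap for 5 members that were higher and 9 that were lower in CR at day 25 (10.2% and 18% of all genes tested), and for 5 and 13 at day 30 (12.1% and 24.3% of all genes). Calls were made for 18 members in at least 1 of these 3 comparisons (42.9%, against 40.8% of all genes) and for 24 in none. The latter had log2 fold changes over both days of -0.18 to 0.23, with limma adjusted p of 0.164 to 0.939. Of these 24, some alternatives called Atf6, Ssr4, Ero1l, Spcs1, Pdia6, Derl2 and Selenos, each described with its group. In these samples of whole liver, fewer cells of a type and less RNA per cell cannot be told apart.

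**Figure D1:**
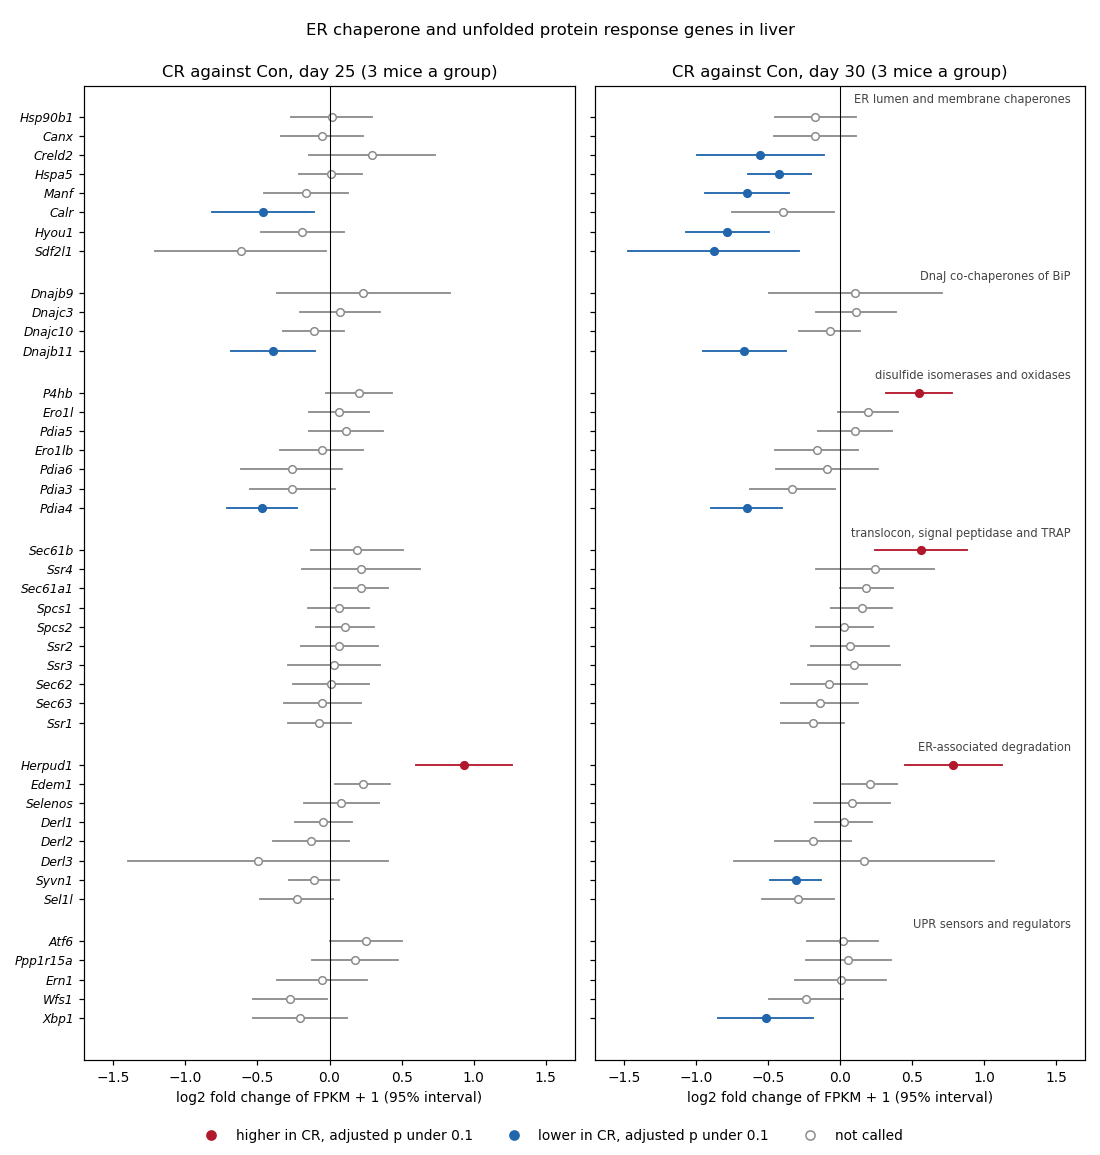
Log2 fold change of FPKM + 1 in CR against Con mice for the 42 tested members, grouped by role and ordered within a role by the fold change over both days, at day 25 (left) and day 30 (right), with 3 mice per group. Points are limma estimates, lines are 95% intervals and filled points passed an adjusted p of 0.1. At day 30, 5 of the 8 members grouped as lumen and membrane chaperones were called lower (16.4% of all genes), and 3 of the 8 without Con11 or without CR10. The 5 were Hspa5, Hyou1, Sdf2l1, Manf and Creld2, whereas Calr, Hsp90b1 and Canx were not called at day 30. Herpud1 was called higher at both days.

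The group of 8 chaperones of the ER lumen and membrane also takes in Sdf2l1, Manf and Creld2, ER proteins described below. Of the 8, none was called higher. Lower calls numbered 1 at day 25, 5 at day 30 and 5 over both days, against 9.34%, 16.4% and 25.4% of all genes called lower. Without Con11 or without CR10, 3 were called lower at day 30, Hspa5, Hyou1 and Manf. Their median log2 fold change was -0.11 at day 25, between -0.17 and -0.05 on leaving out a mouse of that day, and -0.49 at day 30, or -0.31 without Con11. Hspa5 encodes BiP, the Hsp70 chaperone of the ER lumen and the protein that keeps the UPR sensors inactive (NM_001163434, chr2:34772090-34776529, forward strand). Its level at day 25 was 174, 174 and 157 FPKM in Con mice and 177, 167 and 164 FPKM in CR mice. The day 30 level was 184, 222 and 221 FPKM in Con mice and 154, 156 and 157 FPKM in CR mice. The groups overlapped at day 25, whereas every CR mouse lay below every Con mouse at day 30. The log2 fold change was 0.01 ± 0.10 at day 25 (limma adjusted p = 0.977) and -0.42 ± 0.10 at day 30 (limma adjusted p = 0.0152). The small value at day 25 turned negative with TPM (-0.01) and with quantile normalization (-0.06). Leaving out Con11 gave -0.38 at day 30 (limma adjusted p = 0.0556). Over both days it was -0.21 ± 0.07 (limma adjusted p = 0.0443), a call that was lost without Con12 (0.101) and with median-ratio scaling (0.160).

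Hyou1, an Hsp70-like protein that exchanges nucleotides on BiP, was lower in every CR mouse (NM_021395, chr9:44379490-44392369, forward strand). At day 25 it stood at 26.1, 27.3 and 24.7 FPKM in Con mice and 24.03, 23.2 and 21.01 FPKM in CR mice. The day 30 values were 28.8, 43.9 and 31.3 FPKM in Con mice and 19.1, 19.2 and 20.01 FPKM in CR mice. Con11 was the highest mouse of all, and the CR mice of day 30 were the lowest. Its log2 fold change was -0.19 ± 0.13 at day 25 (limma adjusted p = 0.416), -0.78 ± 0.13 at day 30 (0.00245) and -0.49 ± 0.09 over both days (0.00243). Without Con11, the day 30 value was -0.61 (limma adjusted p = 0.00392).

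Calr encodes calreticulin, a lectin chaperone that binds glycoproteins in the lumen. Its level at day 25 was 304, 245 and 305 FPKM in Con mice and 196, 228 and 195 FPKM in CR mice. At day 30 the level was 302, 414 and 249.8 FPKM in Con mice and 242, 234 and 241 FPKM in CR mice. Con and CR mice did not overlap at either day, and Con11 was again the highest. Calr fell by 0.46 ± 0.16 on the log2 scale at day 25 (limma adjusted p = 0.0988) and by 0.43 ± 0.12 over both days (0.0152). At day 30 the log2 value was -0.40 ± 0.16 (limma adjusted p = 0.115), and -0.20 without Con11. The day 25 call was close to the threshold. It was lost with median-ratio scaling (limma adjusted p = 0.164), without the filter on low values (0.160) and without any of 9 of the 12 mice (0.101 to 0.243), all but Con8, Con11 and Con12, and with the replicate block (0.119). Conversely, Calr was called at day 30 without Con12 (0.0391), with TPM (0.09005), with quantile normalization (0.091) and with voom on recovered reads (0.0949).

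Sdf2l1, a partner of BiP and of its co-chaperone Dnajb11, was at lower levels. At day 25 it lay at 7.83, 8.58 and 6.78 FPKM in Con mice and 3.89, 6.45 and 4.01 FPKM in CR mice. At day 30 it lay at 11.4, 21.6 and 7.52 FPKM in Con mice and 6.102, 6.62 and 6.097 FPKM in CR mice. Every CR mouse was below every Con mouse at both days, and Con11 was far above the other Con mice of day 30. The fold change on the log2 scale was -0.62 ± 0.27 at day 25 (limma adjusted p = 0.181), -0.88 ± 0.27 at day 30 (0.0455) and -0.75 ± 0.19 over both days (0.0124). Without Con11 it was -0.50 at day 30 and no longer called (limma adjusted p = 0.125), as it was not without CR10 (0.122) or without the filter on low values (0.102). At day 25, Sdf2l1 was called without Con11 (0.0475), without Con12 (0.0942) or from the 6 mice of that day alone (0.0699).

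Manf, a small ER protein that binds BiP and is secreted upon ER stress, had day 25 levels of 21.2, 20.2 and 18.6 FPKM in Con mice and 17.9, 19.9 and 15.6 FPKM in CR mice. Its day 30 levels were 23.2, 33.99 and 29.2 FPKM in Con mice and 17.9, 19.4 and 16.4 FPKM in CR mice. The groups overlapped at day 25, and at day 30 all CR mice were lower than all Con mice. Manf changed by -0.16 ± 0.13 at day 25 (limma adjusted p = 0.489), by -0.65 ± 0.13 at day 30 (0.00734) and by -0.40 ± 0.10 over both days (0.0077). The day 30 value without Con11 was -0.52 (limma adjusted p = 0.0293). At day 25 the value ran from -0.24 to -0.08 over all alternatives and was never called. A pair of genes on the opposite strand overlaps 166 and 146 bases of Manf exons.

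Creld2, an ER protein induced by unfolded protein, differed in direction between the days. Con mice at day 25 had 10.9, 11.6 and 11.8 FPKM and CR mice 12.5, 15.03 and 15.5. At day 30, Con mice had 12.2, 23.9 and 11.5 FPKM and CR mice 9.96, 10.2 and 9.51. All CR mice were above all Con mice at day 25 and below them at day 30, where Con11 was far from the other Con mice. The log2 fold change was 0.30 ± 0.20 at day 25 (limma adjusted p = 0.403), -0.55 ± 0.20 at day 30 (0.0813) and -0.13 ± 0.14 over both days (0.522). The day 30 call was lost without Con11 (-0.24, limma adjusted p = 0.184), without any 1 of the 3 CR mice of day 30 (0.127 to 0.177), without Con9 (0.1), with median-ratio scaling (0.133), with quantile normalization (0.138), without the filter on low values (0.148) and from the 6 mice of day 30 alone (0.151). Leaving out Con11 also brought a call at day 25 (0.0776) and turned the value over both days to 0.03.

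The remaining chaperones of this group were not called. Hsp90b1, the ER form of Hsp90, was 234 FPKM on average, with log2 fold changes of 0.01 ± 0.13 and -0.17 ± 0.13 at day 25 and day 30 (limma adjusted p = 0.964 and 0.383). Canx, the membrane-bound counterpart of calreticulin, was 66.3 FPKM on average and gave -0.05 ± 0.13 and -0.17 ± 0.13 (0.843 and 0.387 by limma). Without Con11, the day 30 values were -0.03 and -0.10, and both day 25 values changed sign in some alternatives. For both genes the diet groups overlapped at each day. A pseudogene on the opposite strand overlaps 415 bases of Hsp90b1 exons, and transcripts on the same strand overlap 133 and 84 bases.

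Among the 4 DnaJ co-chaperones, which bring unfolded proteins to BiP, Dnajb11 was called lower in all 3 comparisons (9.34%, 16.4% and 25.4% of all genes were) and no other of the 4 was called. Its day 25 levels were 35.3, 31 and 32.7 FPKM in Con mice and 24.9, 25.7 and 24.1 FPKM in CR mice (NM_001190804, chr16:22857845-22872465, forward strand). Day 30 gave 36.6, 47.4 and 30.1 FPKM in Con mice and 22.4, 23.7 and 23.6 FPKM in CR mice. The 6 CR mice lay in a narrow band below all 6 Con mice. Dnajb11 fell by 0.39 ± 0.13 on the log2 scale at day 25 (limma adjusted p = 0.0872), by 0.66 ± 0.13 at day 30 (0.00606) and by 0.53 ± 0.09 over both days (0.00153). The day 30 value without Con11 was -0.50 (limma adjusted p = 0.0151). The day 25 call was lost without any of 10 of the 12 mice (0.102 to 0.223), all but Con11 and Con12, with median-ratio scaling (0.144), without the filter on low values (0.129) and with the replicate block (0.105).

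Dnajc3, the most abundant of the 4 and also known as an inhibitor of PERK, was at 45.1, 39.1 and 38.4 FPKM in Con mice and 42.5, 38.3 and 48.7 FPKM in CR mice at day 25. Day 30 gave 44.2, 52.1 and 37.7 FPKM in Con mice and 46.5, 47.3 and 50.4 FPKM in CR mice. Diet groups overlapped at both days, and the log2 fold change over both days was 0.09 ± 0.09 (limma adjusted p = 0.462). Dnajb9, which acts on IRE1 through BiP, ranged from 12.2 to 29.4 FPKM with overlap at both days (0.17 ± 0.20 over both days, limma adjusted p = 0.534). Dnajc10, a reductase with a J domain, ranged from 5.32 to 7.20 FPKM (-0.09 ± 0.07, limma adjusted p = 0.334). Its CR mice were below its Con mice at day 25 and overlapped with them at day 30.

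The 7 disulfide isomerases and oxidases had 1 called higher and 2 called lower over both days (14.2% and 25.4% of all genes). P4hb, protein disulfide isomerase and also a subunit of prolyl 4-hydroxylase and of the microsomal triglyceride transfer protein, had the highest level of all members (NM_011032, chr11:120560304-120572936, reverse strand). Its day 25 values were 357, 392 and 438 FPKM in Con mice and 438, 457 and 472 FPKM in CR mice. At day 30 they were 429.8, 409.6 and 375 FPKM in Con mice and 624, 578 and 574 FPKM in CR mice. At day 25 the lowest CR mouse lay under the highest Con mouse by less than 1 FPKM, and at day 30 every CR mouse was above every Con mouse of either day. P4hb had a log2 fold change of 0.21 ± 0.11 at day 25 (limma adjusted p = 0.246), 0.55 ± 0.11 at day 30 (0.00499) and 0.38 ± 0.07 over both days (0.00279). Leaving out Con11 gave 0.56 at day 30 (limma adjusted p = 0.0143).

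Pdia4, an isomerase of several thioredoxin domains, went the other way (NM_009787, chr6:47796141-47813512, reverse strand). Its level was 59.1, 53.6 and 58.6 FPKM in Con mice and 42.6, 41.1 and 39.3 FPKM in CR mice at day 25. On day 30 the level was 69.9, 76.98 and 56.7 FPKM in Con mice and 43.9, 43.9 and 40.1 FPKM in CR mice. The highest of the 6 CR mice was below the lowest of the 6 Con mice. Pdia4 fell by 0.47 ± 0.11 on the log2 scale at day 25 (limma adjusted p = 0.0235), by 0.65 ± 0.11 at day 30 (0.00293) and by 0.56 ± 0.08 over both days (0.000362). Its day 30 value without Con11 was -0.55 (limma adjusted p = 0.0118). With the replicate block, Pdia4 was called at day 25 (limma adjusted p = 0.0308).

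Pdia3, the isomerase that works with calreticulin and calnexin, was called over both days and at neither day alone. At day 25 it was 111, 91.1 and 96.95 FPKM in Con mice and 88.4, 82.6 and 78.3 FPKM in CR mice. Its level at day 30 was 114, 151 and 105 FPKM in Con mice and 93.1, 104 and 92.5 FPKM in CR mice. CR mice lay below Con mice at each day, although the gap at day 30 was under 1 FPKM. The log2 fold change was -0.26 ± 0.14 at day 25, -0.33 ± 0.14 at day 30 and -0.29 ± 0.10 over both days (limma adjusted p = 0.263, 0.113 and 0.0354). The day 30 value without Con11 was -0.18 (limma adjusted p = 0.372), and Pdia3 was called at day 30 without Con12 (0.0718), with quantile normalization (0.0947) and with voom on recovered reads (0.0992).

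The other members of this group were not called. Pdia6 was 44.5 to 90.1 FPKM, with CR mice below Con mice at day 25 and within their range at day 30 (-0.18 ± 0.11 over both days, limma adjusted p = 0.261, and 0.0603 without Con12). Pdia5 ranged from 19.9 to 28.1 FPKM (0.11 ± 0.08, limma adjusted p = 0.349). Ero1l and Ero1lb, the oxidases that recharge the isomerases, ranged from 2.25 to 3.34 and from 6.77 to 13.6 FPKM. Their log2 fold changes over both days were 0.13 ± 0.07 and -0.11 ± 0.09 (limma adjusted p = 0.164 and 0.406). Ero1l was called higher at day 30 and over both days with median-ratio scaling (0.0998 and 0.0668) and with quantile normalization (0.0455 and 0.0264). An unprocessed pseudogene at another locus shares 921 bases with Ero1lb at 98.0% identity, so its reads may be split.

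Of the 11 genes of the translocon, signal peptidase and translocon-associated protein (TRAP) complex, 10 were tested, 2 rose over both days (14.2% of all genes) and none fell (25.4% of all genes). Sec61a1, which forms the channel, was at 36.3, 38.9 and 37.9 FPKM in Con mice and 43.9, 44.5 and 43.7 FPKM in CR mice at day 25. Its day 30 levels were 44.03, 43.9 and 39.2 FPKM in Con mice and 49.4, 49.6 and 45.7 FPKM in CR mice. CR mice were above Con mice at both days. Sec61a1 had a log2 fold change of 0.22 ± 0.09 at day 25 (limma adjusted p = 0.133), 0.18 ± 0.09 at day 30 (0.164) and 0.20 ± 0.06 over both days (0.0253). Without Con11 the day 30 value was 0.21. It was called at day 25 with median-ratio scaling (0.0438) and without the filter on low values (0.0771), and at day 30 with median-ratio scaling (0.0406) and quantile normalization (0.0981). An antisense gene overlaps 549 bases of its exons on the opposite strand, and as the table's header names no strand setting, reads of the pair cannot be told apart.

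Sec61b, the beta subunit, was at 23.6, 20.4 and 24.3 FPKM in Con mice and 20.8, 32.6 and 26.1 FPKM in CR mice at day 25 (NM_024171, chr4:47474661-47483233, forward strand). At day 30 the values were 26.8, 31.4 and 28.02 FPKM in Con mice and 46.01, 45.01 and 37.8 FPKM in CR mice. The groups overlapped at day 25 and were apart at day 30. Sec61b had a log2 fold change of 0.19 ± 0.15 at day 25 (limma adjusted p = 0.458), 0.56 ± 0.15 at day 30 (0.0224) and 0.38 ± 0.10 over both days (0.0172). Leaving out Con11 gave 0.62 at day 30 (limma adjusted p = 0.0336). Over all alternatives the day 25 value ran from 0.04 to 0.35 and was never called. Sequences alike over at least 200 bases at 95% identity or more lie at 3 other loci for Sec61b and at 4 for Sec61g, so the level of either is uncertain.

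Ssr4, a TRAP subunit, was the most abundant of this group. It was at 72.99, 116 and 79.8 FPKM in Con mice and 91.1, 123 and 95.2 FPKM in CR mice at day 25. It was at 91.3, 95.9 and 78.4 FPKM in Con mice and 116, 118 and 83.8 FPKM in CR mice at day 30. Groups overlapped at both days and the log2 fold change over both days was 0.23 ± 0.13 (limma adjusted p = 0.208), with a call without Con8 (0.0569), without CR12 (0.0931) or with median-ratio scaling (0.0755). The TRAP subunits Ssr1, Ssr2 and Ssr3, the Sec61 partners Sec62 and Sec63 and the signal peptidase subunits Spcs1 and Spcs2 were not called and overlapped between diets at both days. Their log2 fold changes over both days lay between -0.13 for Ssr1 and 0.11 for Spcs1, which was called with median-ratio scaling (limma adjusted p = 0.0554). Spcs2 has 1 pseudogene alike, and exons of Spcs1, Sec62 and Ssr2 overlap a gene on the opposite strand by 252, 509 and 239 bases, and those of Sec63 by 173 bases.

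In ER-associated degradation, which returns misfolded proteins to the cytosol for the proteasome, 2 of 8 members rose over both days (14.2% of all genes) and 2 fell (25.4% of all genes). Herpud1, a membrane protein that organises the degradation complex around the ligase Syvn1, had the largest increase of all members (NM_022331, chr8:94386500-94395358, forward strand). At day 25 it was at 150.1, 220.3 and 231 FPKM in Con mice and 377, 369 and 385 FPKM in CR mice. For day 30, levels were 177, 161 and 186 FPKM in Con mice and 262, 313 and 334 FPKM in CR mice. At each day the lowest CR mouse was above the highest Con mouse. Mean levels were 200.5 ± 43.96 FPKM in Con and 377 ± 7.67 FPKM in CR mice at day 25, and 175 ± 12.7 and 303 ± 36.7 FPKM at day 30 (SD, n = 3). The log2 fold change was 0.93 ± 0.15 at day 25 (limma adjusted p = 0.00382), 0.79 ± 0.15 at day 30 (0.0055) and 0.86 ± 0.11 over both days (0.000163). Leaving out Con11 gave 0.73 at day 30 (limma adjusted p = 0.022). Herpud1 was called in every alternative tried for these comparisons.

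Edem1, a lectin-like protein that passes glycoproteins to degradation, gave 21.8, 21.1 and 20.01 FPKM in Con mice and 26.9, 22.9 and 24.5 FPKM in CR mice at day 25. In the day 30 mice it was 22.6, 23.3 and 24.6 FPKM in Con mice and 27.9, 26.8 and 26.99 FPKM in CR mice. CR mice were above Con mice at both days. Its log2 fold change was 0.23 ± 0.09, 0.20 ± 0.09 and 0.22 ± 0.06 at day 25, at day 30 and over both days (limma adjusted p = 0.122, 0.125 and 0.0191). The day 30 value without Con11 was 0.20. Edem1 was called at day 25 without CR8 (0.0923), without the filter on low values (0.08875) and with median-ratio scaling (0.0569), and at day 30 without the filter (0.09075) and with that scaling (0.0441).

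Sel1l and Syvn1, the adaptor and the ubiquitin ligase of the same complex as Herpud1, were lower in CR mice. Sel1l was at 28.8, 26.2 and 28.1 FPKM in Con mice and 26.8, 22.7 and 21.2 FPKM in CR mice at day 25. Its day 30 values were 31.3, 28.7 and 29.9 FPKM in Con mice and 20.6, 25.9 and 26.8 FPKM in CR mice. The diets overlapped at day 25 and were apart at day 30. Sel1l had log2 fold changes of -0.23 ± 0.12 at day 25, -0.29 ± 0.12 at day 30 and -0.26 ± 0.08 over both days (limma adjusted p = 0.245, 0.106 and 0.0317). Its day 30 value without Con11 was -0.32, and it was called at day 30 without CR7 (0.0946), without CR12 (0.0844) and with voom on recovered reads (0.09995). Over all alternatives the day 30 value of Sel1l ran from -0.36 to -0.18, with limma adjusted p up to 0.362. Syvn1 was at 16.3, 18.3 and 17.5 FPKM in Con mice and 15.3, 16.1 and 16.8 FPKM in CR mice at day 25. It was at 17.5, 17.5 and 18.1 FPKM in Con mice and 14.4, 14.3 and 13.7 FPKM in CR mice at day 30. Groups overlapped at day 25, and the 3 CR mice of day 30 were the lowest of all 12 mice. Syvn1 had a log2 fold change of -0.11 ± 0.08 at day 25 (limma adjusted p = 0.451), -0.31 ± 0.08 at day 30 (0.0219) and -0.21 ± 0.06 over both days (0.0165). Its day 30 value without Con11 was -0.32 (limma adjusted p = 0.0542). A gene on the opposite strand overlaps 91 bases of Syvn1 exons.

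The derlins, which take part in moving proteins out of the ER, and Selenos, a selenoprotein that recruits the ATPase p97, were not called. Derl1 ranged from 21.0 to 27.5 FPKM and Derl2 from 15.3 to 22.2 FPKM, with log2 fold changes over both days of -0.01 ± 0.07 and -0.16 ± 0.09 (limma adjusted p = 0.939 and 0.181). Derl2 was lower in every CR mouse at day 30 and was called over both days without Con9 (limma adjusted p = 0.0704). Derl3 was low, at 0.134 to 3.43 FPKM, and gave -0.17 ± 0.29 (limma adjusted p = 0.702). Selenos ranged from 37.7 to 53.2 FPKM (0.08 ± 0.09, limma adjusted p = 0.49, and 0.082 without CR12). A processed pseudogene alike Derl1 over 652 bases, and a gene on the opposite strand that overlaps 231 bases of Derl2, leave these 2 levels uncertain.

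Of the 5 UPR sensors and regulators, none was called higher and 2 were called lower over both days (14.2% and 25.4% of all genes). Xbp1 encodes the transcription factor that is switched on when IRE1 splices its mRNA (NM_001271730, chr11:5520641-5525993, forward strand). Its level was 54.96, 57.95 and 49.3 FPKM in Con mice and 45.3, 53.8 and 41.5 FPKM in CR mice at day 25. At day 30 it was 62.8, 87.6 and 59.8 FPKM in Con mice and 44.9, 53.8 and 45.6 FPKM in CR mice. The diets overlapped at day 25, and at day 30 the highest CR mouse was below the lowest Con mouse, with Con11 the highest. The log2 fold change was -0.21 ± 0.15 at day 25 (limma adjusted p = 0.429), -0.52 ± 0.15 at day 30 (0.0351) and -0.36 ± 0.11 over both days (0.0228). Without Con11 the day 30 value was -0.35 and no longer called (limma adjusted p = 0.124), nor was it without CR10 (0.1198). FPKM over whole exons do not separate spliced from unspliced Xbp1 mRNA.

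Wfs1, an ER membrane glycoprotein that restrains ATF6, was low at 2.96, 3.06 and 3.17 FPKM in Con mice and 2.39, 2.52 and 2.197 FPKM in CR mice at day 25. The day 30 level was 2.56, 2.76 and 3.99 FPKM in Con mice and 2.22, 2.63 and 2.495 FPKM in CR mice. CR mice were below Con mice at day 25 and overlapped with them at day 30. Its log2 fold change was -0.27 ± 0.12, -0.24 ± 0.12 and -0.25 ± 0.08 at day 25, at day 30 and over both days (limma adjusted p = 0.174, 0.191 and 0.0366). Without Con11 the day 30 value was -0.29, although Con12 was the highest Con mouse of that day. Over all alternatives the day 30 value ran from -0.33 to -0.09 and was never called. The call over both days was lost with quantile normalization (0.133), and leaving out Con12 brought a call at day 25 (0.07597).

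The other 3 were not called. Atf6 was at 10.8, 10.1 and 9.73 FPKM in Con mice and 13.1, 10.9 and 13.3 FPKM in CR mice at day 25. Day 30 gave 11.4, 11.98 and 10.7 FPKM in Con mice and 9.78, 11.6 and 13.3 FPKM in CR mice. CR mice were above Con mice at day 25 and spread around them at day 30, with 0.14 ± 0.08 over both days (limma adjusted p = 0.222) and a call without CR10 (0.0889) or with median-ratio scaling (0.0847). Ern1, which encodes IRE1, was at 7.85, 7.45 and 7.82 FPKM in Con mice and 6.77, 7.503 and 7.98 FPKM in CR mice at day 25. It was at 7.12, 10.9 and 7.34 FPKM in Con mice and 8.103, 7.14 and 9.93 FPKM in CR mice at day 30. Its groups overlapped at both days (-0.02 ± 0.10 over both days, limma adjusted p = 0.888), and the sign turned with median-ratio scaling and with quantile normalization (0.04 each), without CR7 (0.005), without CR11 (0.03) and without Con11 (0.06). Ppp1r15a, the subunit that guides dephosphorylation of eIF2α, was at 3.43, 4.04 and 2.55 FPKM in Con mice and 4.17, 3.74 and 3.67 FPKM in CR mice at day 25. At day 30 the levels were 3.19, 3.79 and 3.79 FPKM in Con mice and 4.64, 3.31 and 3.46 FPKM in CR mice. Groups overlapped here too (0.12 ± 0.10 over both days, limma adjusted p = 0.377).

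**Figure D2:**
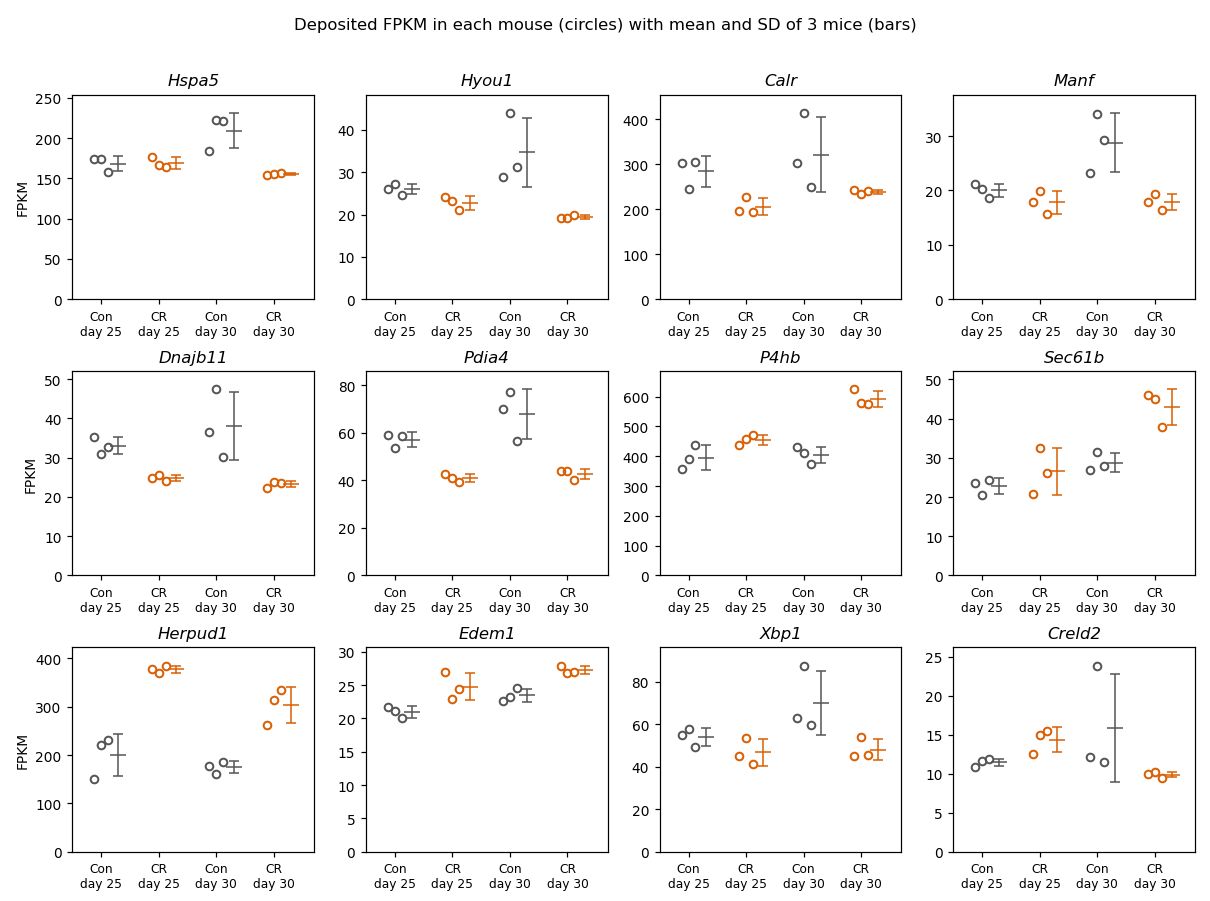
FPKM of 12 members in each mouse (circles), with the mean and SD of 3 mice beside them (bars), for Con (grey) and CR (orange) mice at day 25 and day 30; each vertical axis starts at 0. Herpud1 was higher in every CR mouse at both days, and Pdia4 and Dnajb11 were lower in every CR mouse at both days. Con11 is the highest Con mouse of day 30 in the Hspa5, Hyou1, Calr, Manf, Dnajb11, Pdia4, Sec61b, Xbp1 and Creld2 plots.

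The CR effect was then compared between days. No member was called for a difference of the CR effect between day 25 and day 30 (0.00944% of all genes were called by limma), and voom on the recovered reads called none either. At an unadjusted p under 0.05, limma listed 5 members (11.9%) and 366 of all genes (3.46%). The log2 difference between days was -0.60 ± 0.19 for Hyou1, -0.43 ± 0.14 for Hspa5, -0.85 ± 0.29 for Creld2, -0.48 ± 0.19 for Manf and 0.34 ± 0.15 for P4hb. Without Con11 these were -0.42, -0.38, -0.53, -0.36 and 0.35. With all mice, each had a limma adjusted p of 0.9995, so calls of these genes at day 30 and not at day 25 do not show that the CR effect differed between the days. The difference for Herpud1 was -0.15 ± 0.22, smaller than its SE.

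Between the days within a diet, no member was called in Con mice (0% of all genes were called by limma) or in CR mice (0.321% of all genes). At an unadjusted p under 0.05, limma listed 11 members in Con mice and 8 in CR mice (26.2% and 19.0%), and 7.22% and 8.66% of all genes. The median member was 0.19 higher on the log2 scale at day 30 than at day 25 in Con mice and 0.13 higher in CR mice, against 0.02 and -0.01 for all genes, with 40 and 34 of the 42 members (95.2% and 81.0%) and 54.3% and 48.4% of all genes above 0. Without Con11 the median in Con mice was 0.13, with 36 members above 0. In CR mice, Sec61b was 0.69 ± 0.15 higher at day 30, which did not pass the threshold (limma adjusted p = 0.101), and it was called with TPM (0.07701), with quantile normalization (0.0898), with voom on the recovered reads (0.07405) and without CR8 (0.0566). Creld2 was called lower at day 30 in CR mice without Con11 (limma adjusted p = 0.0916).

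Promoters of the members were searched for the ER stress response element, which ATF6 and XBP1 are known to use. The RefSeq windows for GRCm38.p6 span 250 bases before to 50 bases after a gene's start, and 37 of the 43 members had one; Hyou1, Manf, Sec61a1, Ssr2, Derl1 and Atf6 had none. The element was searched on both strands as CCAAT and CCACG with 9 bases between them. It was found in 10 of the 37 members (27.0%) and in 37 of 27025 genes overall (0.137%). A second form, ATTGG and CCACG with 1 base between them, was found in Herpud1 and Dnajb11 and in 12 genes overall (0.0444%). CCACG alone, which both forms contain, was in 29 of the 37 members and in 35.5% of genes. A match describes the letters of the window and is no evidence of binding.

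The matches are shown in the orientation of the gene, with the letters of the element in capitals, so that those on the other strand read CGTGG and then ATTGG.
Hspa5, chr2:34772024-34772044, gene on the forward strand: aCCAATcggaggcctCCACGa
Calr, chr8:84847074-84847094, gene on the reverse strand: gCGTGGtcgaccctcATTGGc
Creld2, chr15:88819519-88819539, gene on the forward strand: tCGTGGcgagcctcaATTGGt
Syvn1, chr19:6046531-6046551, gene on the forward strand: aCCAATcggcggtagCCACGg
Hsp90b1, chr10:86705532-86705552, gene on the reverse strand: gCGTGGtgaggcacgATTGGt
Hsp90b1, chr10:86705637-86705657, gene on the reverse strand: cCCAATcgcaaggagCCACGc
Canx, chr11:50325799-50325819, gene on the reverse strand: aCCAATcaccacgctCCACGa
Pdia6, chr12:17266490-17266510, gene on the forward strand: aCCAATgaaaggcggCCACGg
Dnajc3, chr14:118937826-118937846, gene on the forward strand: aCCAATcagcgccaaCCACGa
Ero1lb, chr13:12565681-12565701, gene on the forward strand: tCGTGGtcccgcctcATTGGc
Derl3, chr10:75893241-75893261, gene on the forward strand: cCGTGGgacttccccATTGGc
Herpud1, chr8:94386376-94386388, gene on the forward strand: gATTGGgCCACGt
Dnajb11, chr16:22857851-22857863, gene on the forward strand: gATTGGcCCACGc
Hsp90b1 held the element on each strand. The match in Dnajb11 lay after the gene's start in the window, and all others lay before it. Among the 10 genes with the first form, Hspa5, Calr, Creld2 and Syvn1 were called lower in CR mice in at least 1 of the 3 comparisons, as 26.2% of all genes were, and the other 6 were not called. Whether genes with the element differ from other genes was not tested. Of the pair with the second form, Herpud1 was called higher and Dnajb11 lower. Pdia4, Sdf2l1, Xbp1 and P4hb held neither form in their windows.

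Upstream sequence of Hspa5 and Herpud1 is given for the 250 bases before the start of the window's transcript, as the pair was called in opposite directions at day 30, with the elements in capitals.
Hspa5, chr2:34771840-34772089, forward strand: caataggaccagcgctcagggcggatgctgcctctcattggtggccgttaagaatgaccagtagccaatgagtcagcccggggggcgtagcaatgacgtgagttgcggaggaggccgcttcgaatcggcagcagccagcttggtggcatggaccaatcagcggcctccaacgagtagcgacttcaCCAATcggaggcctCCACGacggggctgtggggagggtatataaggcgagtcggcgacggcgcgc
Herpud1, chr8:94386179-94386428, forward strand: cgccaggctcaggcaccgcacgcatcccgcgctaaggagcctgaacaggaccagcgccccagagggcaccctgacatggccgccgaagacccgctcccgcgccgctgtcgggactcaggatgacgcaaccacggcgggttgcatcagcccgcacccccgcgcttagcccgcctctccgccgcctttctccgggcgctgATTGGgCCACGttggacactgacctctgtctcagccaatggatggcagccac
The matches lie 46 bases before the start in Hspa5 and 41 bases before it in Herpud1, counted from the RefSeq start, which for Herpud1 differs from the start in the authors' table. These stretches hold 62.4% and 69.2% G and C.

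Other genes of the same pathways were taken from 6 lists. Of 12 further UPR sensors, processing enzymes and factors, 1 was called higher and 3 lower over both days (14.2% and 25.4% of all genes, as for each list below). Trib3, a pseudokinase induced downstream of ATF4, was at 4.301, 9.15 and 6.55 FPKM in Con mice and 2.88, 4.53 and 4.33 FPKM in CR mice at day 25. On day 30 the level was 9.81, 4.86 and 10.1 FPKM in Con mice and 3.67, 5.65 and 3.27 FPKM in CR mice. The diets overlapped at both days. Trib3 changed by -0.71 ± 0.20 over both days (limma adjusted p = 0.0186). Atf4 and Ddit3, transcription factors of the PERK branch, were not called (-0.07 ± 0.10 and 0.28 ± 0.12 over both days, limma adjusted p = 0.622 and 0.103), and neither was Eif2ak3, which encodes PERK (0.10 ± 0.07, limma adjusted p = 0.311). Ddit3 was close to the threshold and was called over both days with median-ratio scaling (0.0475), TPM (0.0922) or quantile normalization (0.0523), and without CR9 (0.09145), Con10 (0.0581) or CR12 (0.0366). Quantile normalization also called Eif2ak3 (0.0603).

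Of 32 tested further ER folding factors, 5 were higher and 4 lower over both days. The largest change was in Fkbp11, a prolyl isomerase, whose CR mice had 3.63, 6.28 and 4.64 FPKM at day 25 and 4.004, 8.899 and 3.71 FPKM at day 30. Con mice had 5.45, 6.13 and 6.76 and 7.98, 10.8 and 7.19 FPKM. Groups overlapped at both days, and the log2 value over both days was -0.47 ± 0.18 (limma adjusted p = 0.0662). The call was lost without the filter on low values (0.132), with quantile normalization (0.108) and without any of 7 mice, Con8, Con9, CR7, CR9, Con11, CR10 and CR12 (0.102 to 0.1497). Among 16 tested genes of oligosaccharyltransferase and glycan trimming, 3 were higher and none was lower. Dad1, an oligosaccharyltransferase subunit, had 71.8, 79.7 and 79.5 FPKM in Con and 77.2, 88.8 and 92.1 FPKM in CR mice at day 25. At day 30, Con mice had 77.3, 82.7 and 74.2 FPKM and CR mice 113, 101 and 91.6 FPKM. All CR mice were above all Con mice at day 30 (0.27 ± 0.08 over both days, limma adjusted p = 0.0214).

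In 22 further ER-associated degradation genes, 2 were higher and 7 lower over both days. The largest change was in Fam8a1, which binds Syvn1, with 12.1, 10.9 and 10.4 FPKM in Con mice and 9.96, 10.1 and 7.56 FPKM in CR mice at day 25. Its level at day 30 was 12.2, 12.1 and 13.5 FPKM in Con mice and 7.11, 9.88 and 9.88 FPKM in CR mice. CR mice were below Con mice at each day (-0.36 ± 0.09 over both days, limma adjusted p = 0.0136).

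Of 12 tested targeting and translocation factors, 1 was lower over both days, the signal recognition particle subunit Srp9 (-0.18 ± 0.08, limma adjusted p = 0.0973). Its Con mice had 15.5, 14.8 and 13.1 and 15.9, 15.2 and 16.7 FPKM at the 2 days, and its CR mice 12.2, 12.9 and 12.7 and 14.1, 16.3 and 11.9 FPKM. CR mice were lower at day 25 and overlapped with Con mice at day 30. The call was lost without any mouse except Con9 and CR11 (limma adjusted p of 0.1102 to 0.202), and with median-ratio scaling (0.243), quantile normalization (0.156), voom on recovered reads (0.1005), no filter (0.1196) or no trend (0.1003). Of 19 tested genes of the COPII coat and its cargo receptors, 3 were higher and 2 lower over both days. Sec22b, a SNARE of ER to Golgi traffic, had 13.3, 16.1 and 14.1 and 16.4, 16.6 and 16.04 FPKM in Con mice at the 2 days. CR mice had 12.9, 12.4 and 12.5 and 11.7, 12.2 and 9.86 FPKM. They were below the Con mice at both days, and Sec22b changed by -0.34 ± 0.07 over both days (limma adjusted p = 0.00298). Taken over the 6 lists, 14 of 113 tested genes were higher (12.4%) and 17 lower (15.0%) over both days, against 14.2% and 25.4% of all genes.

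Cytosolic and mitochondrial chaperones served as a comparison. Of 30 tested, 8 were higher and 3 lower over both days (14.2% and 25.4% of all genes), with a median log2 fold change of 0.05. Hspa1b, the stress-induced Hsp70, was at 0.406, 0.523 and 0.402 FPKM in Con mice and 2.05, 1.13 and 2.37 FPKM in CR mice at day 25. For day 30, levels were 0.296, 1.14 and 0.506 FPKM in Con mice and 0.809, 1.15 and 1.34 FPKM in CR mice. All CR mice were above all Con mice at day 25, and the groups overlapped at day 30. Its log2 fold change was 0.96 ± 0.20 at day 25, 0.38 ± 0.20 at day 30 and 0.67 ± 0.14 over both days (limma adjusted p = 0.0115, 0.212 and 0.00415). Without Con11 it was called at day 30 (0.58, limma adjusted p = 0.0685). Levels of Hspa1b were low, and Con11 was the only Con mouse to reach 1 FPKM, so Hspa1b passed the filter on low values through CR mice. Similar loci were searched for the members alone, so whether reads of Hspa1b are shared with another gene is not known here. The difference between these chaperones and those of the ER was not tested.

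Markers of the cell types of liver were read in the same mice. The 25 secreted plasma proteins that mark hepatocytes summed to 75410 to 111900 FPKM per mouse, led by Alb at 36890 FPKM on average. Of these, none was called at day 25, 5 were called higher and 2 lower at day 30 (8.33% and 16.4% of all genes), and 5 and 5 over both days (14.2% and 25.4%). Their sum at day 30 was 89490, 75410 and 81520 FPKM in Con and 111900, 97660 and 100500 FPKM in CR mice, apart between diets and lowest in Con11. Alb made up most of this difference, and without it the sums overlapped (56480, 50010 and 50740 FPKM in Con, 60200, 56610 and 54050 FPKM in CR). The median log2 fold change of the 25 at day 30 was 0.08, with 15 above 0. At day 25 the sum of the 25 was 85610, 92230 and 96510 FPKM in Con and 92450, 103500 and 99460 FPKM in CR mice, with overlap. Alb had a log2 fold change of 0.64 at day 30 (limma adjusted p = 0.00791). Markers of Kupffer cells, the macrophages of liver, were called lower for 7 of 10 tested genes at day 25 and for 7 over both days (9.34% and 25.4% of all genes). Marco went the other way, with 0.37 at day 25 (limma adjusted p = 0.338), 0.79 at day 30 (0.0349) and 0.58 over both days (0.018), and no other was called at day 30. Their summed level was 75.5, 125 and 75.1 FPKM in Con and 48.8, 58.8 and 54.1 FPKM in CR mice at day 25. At day 30 it was 97.5, 88.2 and 66.4 FPKM in Con and 66.8, 88.6 and 62.5 FPKM in CR mice. The sums were apart at day 25 and overlapped at day 30. Cd5l was the most abundant of them, and none was at 0 in all mice. Their part in the calls of members was not tested.

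Endothelial markers (4 of 10 called higher at day 30 against 8.33% of all genes, none lower, Clec4g most abundant) summed to 58.3, 56.7 and 54.8 FPKM in Con and 80.9, 72.2 and 74.1 FPKM in CR mice at day 30. At day 25 the sums were 59.9, 81.4 and 54.3 and 68.3, 73.5 and 79.9 FPKM. Stellate cell and fibroblast markers (4 of 9 tested called higher at day 30, none lower, Dcn most abundant) summed to 66.2, 61.2 and 54.4 FPKM in Con and 76.5, 91.9 and 81.2 FPKM in CR mice at day 30. At day 25 they summed to 68.2, 63.9 and 57.3 and 73.2, 75.6 and 70.8 FPKM. Both sums were apart between diets at day 30, and the stellate and fibroblast sums were apart at day 25 as well, though not without Dcn. At day 25, 1 gene of each list was called higher, Stab2 and Reln (5.6% of all genes). Over both days 4 of each list were called higher (14.2% of all genes), and none was called lower in either comparison. None of these markers was at 0 in all mice. The part of hepatocyte, endothelial, stellate and fibroblast cells in the calls of members was not tested. T and NK cell markers were under 1 FPKM in every mouse for all 8 genes, pancreatic acinar markers for 10 of 11, and B and plasma cell markers for 7 of 8, the exception being Sdc1, which hepatocytes also express. None of the tested cholangiocyte markers, 2 of 7, was called. Of 7 tested erythroid markers, Alas2 was called lower at both days (-0.69 and -1.49 on the log2 scale, limma adjusted p = 0.0667 and 0.000974). The other 6, all globin genes, were not called and had positive values at day 30 (0.75 to 0.79).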

How the data were processed

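Liver RNA was sequenced by the authors as paired-end reads, converted with CASAVA 1.8.2, checked with FastQC and mapped with BWA to mm10. The values are FPKM that the authors deposited, counted with HOMER over exons with 1 transcript kept per gene, according to the table's header, which names no strand setting. Differential expression in the study was done with DESeq2, and its output was not used here. Exon length and FPKM gave the depth of each library, 15748430 to 23347495 reads, at which the 1500 low values tested per library were 100% within 0.1 of a whole number of reads. The members and the lists of other genes were chosen with earlier results of these data known.

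FPKM were taken as log2(FPKM + 1), without scaling between libraries. Genes with at least 1 FPKM in at least 3 libraries were fitted with limma 3.58.1 in R 4.3.3, in 1 model of the 4 groups with a trended empirical Bayes spread. CR was compared with Con at day 25, at day 30 and over both days (the mean of the effects of the days), the effects of the days were compared with each other, and days were compared within each diet. Calls used a Benjamini-Hochberg adjusted p under 0.1. The code of the fit was also run on simulated data, which says nothing of the calls made here. Values per mouse are given for each member called in a CR comparison and for Atf6, Ern1, Ppp1r15a, Dnajc3 and Ssr4. Of the other pathway lists, the called gene with the largest change over both days is named in each. Atf4, Ddit3 and Eif2ak3, the markers named, and the members whose promoters are shown were chosen after their values were seen.

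Titles number the day 30 Con samples, but their descriptions are identical and nothing links the columns Con10 to Con12 to single samples, so these were tied to the group alone. At day 25, Con and CR mice of the same replicate number had correlations of 0.368, 0.306 and 0.106 after group means were removed, so a replicate block was tried. Alternatives were a pseudocount of 0.1, no filter, median-ratio scaling, TPM, quantile normalization, no trend, voom on recovered reads, the 6 mice of a day alone, the replicate block at day 25, an adjusted p under 0.05 and leaving out each mouse in turn. Tables were made with pandas 2.3.3 and numpy 2.4.6 and plots with matplotlib 3.10.9, all in Python 3.11.15. Similar loci were searched with BLAST 2.17.0 (at least 200 bases at 95% identity) and overlapping exons with bedtools 2.31.1, on GENCODE transcripts; exon overlaps of 50 bases or fewer are not named. Promoter windows and sequences came from RefSeq annotation of GRCm38.p6.

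Each group held 3 mice, so small changes may have gone uncalled. BWA does not split reads over introns, and the part of reads lost at exon junctions was not tested. Levels are of RNA in whole liver, and protein levels and the activity of the UPR sensors were not measured here. All libraries came from a single lane.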

Additional observations from a re-analysis of the deposited data

Results flagged for a closer look

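Creld2 was the 1 member whose CR mice were all above the Con mice at day 25 and all below them at day 30. It is given here for this difference between the days. Of all genes tested, 10.2% had all CR mice above all Con mice at day 25 and 24.3% had them below at day 30. The share of genes with both was not counted, so the switch of Creld2 is not set against it. The log2 difference of the CR effect between the days was -0.849 ± 0.29 (limma unadjusted p = 0.0115, adjusted p = 0.9995), which did not pass the threshold. Without Con11, the highest Con mouse of day 30 at 23.9 FPKM, the difference was -0.53 (limma adjusted p = 0.896). Whether a technical or a biological difference lies behind it was not tested. Whether a mouse lay far from the others was not tested.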

How the results depend on the processing

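Fold changes were recomputed for the 18 called members in the 3 comparisons of CR with Con and for Atf6, Ern1, Ppp1r15a, Dnajc3 and Ssr4 over both days. Of these values, 1094 kept their direction and their side of the threshold, 42 no longer passed it, 29 newly passed it and 10 changed sign. At day 30, the alternatives gave 11 to 15 called members and leaving out a mouse gave 9 to 14, against 12 with all mice. Over both days they gave 17 to 20 and 17 to 19, against 17. Of all genes, the alternatives at an adjusted p under 0.1 called 4.31% to 12.5% higher and 8.87% to 19.0% lower at day 30. Leaving out a mouse called 4.88% to 8.64% and 9.25% to 16.9% of all genes. Over both days these shares were 8.25% to 20.6% and 16.0% to 28.1% with the alternatives. They were 11.7% to 15.2% and 20.9% to 25.3% on leaving out a mouse. The other pathway lists gave 26 to 41 called genes over both days, and 23 to 31 on leaving out a mouse, against 31.

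At day 25, the 4 called members became 2 with the replicate block and 2 at an adjusted p under 0.05, and 2 to 6 on leaving out a mouse. The replicate block called 6.37% of all genes higher and 10.1% lower at day 25. Leaving out a mouse called 3.01% to 5.75% of all genes higher and 4.95% to 9.39% lower. The share of all genes at an adjusted p under 0.05 was not counted. The cause was not tested. Between the days in CR mice, 0 called members became 1, Sec61b, with TPM, with quantile normalization and with voom on recovered reads. Of all genes, these called 0.151%, 0.189% and 0.227% higher at day 30. On leaving out a mouse, 0 to 1 members were called. These were Sec61b, higher without CR8 (0.0566% of all genes), and Creld2, lower without Con11 (0.245% of all genes). The cause was not tested. No alternative called a member for a difference of the CR effect between the days or between the days in Con mice.

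These 10 changes of sign were in values near 0, none of them called, and their cause was not tested. For Hspa5 at day 25, the log2 value of 0.007 became -0.011 with TPM, -0.058 with quantile normalization, and -0.041 and -0.026 without Con9 and CR7, within -0.041 to 0.032 on leaving out a mouse. For Creld2 over both days it became 0.03 without Con11, within -0.218 to 0.03. For Ern1 over both days it became 0.041 with median-ratio scaling and with quantile normalization, and 0.005, 0.065 and 0.025 without CR7, Con11 and CR11, within -0.081 to 0.065. Other fold changes near 0 also changed sign in some alternatives, among them those of Hsp90b1 and Canx at day 25, of Derl1, Derl3 and Atf4 over both days, and of Atf6, Ern1, Ppp1r15a and Dnajc3 at day 30. Median-ratio scaling moved the median log2 fold change of all genes from -0.07 to -0.002 at day 30. Reads per mouse were fewest for Derl3 (3 to 97), Sdf2l1 (89 to 507), Ppp1r15a (100 to 252) and Wfs1 (141 to 320) among tested members, and the pseudocount weighs more on low levels.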
